A study of Mus musculus with 10 samples.

Results

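The Zfp genes are the mouse genes whose symbol is Zfp followed by a number, most of which encode proteins with zinc fingers of the C2H2 type. They were taken as the protein-coding genes with such a symbol and a mean estimated count of at least 50 over the 10 libraries, and 274 of the 53697 genes in the files met this rule. Another 89 Zfp genes lay below that minimum, and Zfp36 was left out because its protein binds RNA through fingers of another type. RNA was sequenced from microglia, the resident macrophages of the brain, in 5 libraries of Bhlhe40-/-Bhlhe41-/- (DKO) mice and 5 libraries of wild-type (WT) mice. All mice were untreated females on a C57BL/6 background, and they were adults of more than 1 age. The WT mice were C57BL/6J or Rosa26Stop-YFP. Neither the strain of the WT mice nor the age is assigned to single libraries. Bhlhe40 and Bhlhe41 encode related repressors that bind DNA at E-boxes, and the deletion is constitutive, so every cell of the DKO mice carries it. The sort kept viable CD45.2+ CD11b+ cells free of Ly6C, Ly6G, MHCII and CD38. The labels call the libraries biological replicates without saying whether each is 1 mouse, and the p-values therefore rest on the spread among libraries, which may be technical.

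A C2H2 zinc finger is a short loop held by a zinc ion, and proteins that carry many of them in a row read long DNA sequences. In mammals the largest class joins the fingers to a KRAB box, which recruits TRIM28 and, through it, the histone methyltransferase SETDB1, HP1 proteins and histone deacetylases. These proteins are best known for silencing transposable elements, and their genes lie in clusters that arose by duplication. Zinc finger proteins without a KRAB box have more varied roles, from promoter binding to splicing and ribosome assembly.

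Estimated counts summed to 22483044 to 26109107 in DKO libraries and to 23381908 to 25870859 in WT libraries. Bhlhe40 was scarce, at 0.0429 to 0.34 CPM (counts scaled by TMM to a common library total) in DKO and 0.144 to 1.05 CPM in WT libraries. Bhlhe41 was not lower, at 40.6 to 60.5 CPM in DKO and 31 to 47.0 CPM in WT libraries, but its abundance-weighted transcript length was 1851 to 2719 bases in DKO and 5878 to 6133 bases in WT libraries, so the length and not the count separated the genotypes. The 15 microglial marker genes summed to 84800 to 102000 CPM in DKO and 90500 to 101000 CPM in WT libraries, and all 15 were tested, with 1 called lower in DKO and none higher. Markers of endothelial and mural cells summed to 11.9 to 18.8 CPM in DKO and 41.5 to 64.4 CPM in WT libraries, those of T and NK cells to 10 to 18.4 CPM against 24.8 to 47.9 CPM, and those of monocytes to 27.3 to 36.8 CPM against 15.8 to 19.9 CPM. Astrocyte markers summed to 158 to 210 CPM in DKO and 243 to 397 CPM in WT libraries, and in each of these lists the genotypes did not overlap. Single genes carried most of the lower sums, namely Slc1a3 of the astrocyte list (171 CPM in DKO and 304 CPM in WT), Pecam1 of the endothelial and mural list (5.08 CPM in DKO and 44.2 CPM in WT) and Il7r of the T and NK cell list (12.6 CPM in DKO and 34.1 CPM in WT). Each was the 1 gene called lower in its list, and the median log2 fold change was 0.56 over the 5 tested astrocyte and 0.15 over the 4 tested endothelial and mural markers. Neutrophil markers stayed at or under 0.384 CPM, with 4 of 8 genes at 0 everywhere, as were 3 of 7 B cell, 3 of 7 T and NK cell and 2 of 7 border-associated macrophage markers. B cell markers summed to 526 to 886 CPM in DKO and 418 to 677 CPM in WT libraries, those of border-associated macrophages to 7.04 to 27.5 CPM against 5.18 to 15.8 CPM, those of neurons to 8.76 to 13.1 CPM against 7.90 to 9.80 CPM, those of oligodendrocytes to 198 to 213 CPM against 197 to 230 CPM, those of red blood cells to 0.772 to 16.2 CPM against 0.0424 to 13.1 CPM, and genes of the dissociation response to 1320 to 2020 CPM against 757 to 1710 CPM. Among these last lists, 1 border-associated macrophage marker was called higher, 1 oligodendrocyte marker was called lower, and no other gene was called. The part of all these cells in the results below was not tested, and fewer cells of a type and less RNA per cell cannot be told apart in bulk samples.

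The Zfp genes were expressed at low levels. Per length, as TPM recomputed over the tested protein-coding genes, the 274 members had a median of 5.82 in DKO and 6.56 in WT microglia, and the median of all tested protein-coding genes over the 10 libraries was 12.3. The members together took 0.495% to 0.593% of all counts in DKO and 0.520% to 0.617% in WT libraries. A KRAB box was found in 171 members and none in 98, and 5 genes without an annotation in the reference used (Zfp236, Zfp407, Zfp516, Zfp532 and Zfp608) were not classified. Members with a KRAB box had a median of 4.93 TPM in DKO and 6.16 TPM in WT, and members without one 10.5 TPM in DKO and 9.40 TPM in WT. KRAB members carried a median of 12 fingers, members without the box a median of 7, and Zfp142 the most of all, 36.

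The 8 members highest in TPM were Zfp706, Zfp207, Zfp710, Zfp691, Zfp467, Zfp637, Zfp110 and Zfp24, and only Zfp110 among them has a KRAB box. Zfp706, a small protein that restrains self-renewal in mouse embryonic stem cells, averaged 195 ± 9.73 TPM in DKO and 172 ± 52.4 TPM in WT (SD, n = 5 each). Zfp207 (BuGZ), a spindle protein that also takes part in splicing, averaged 89.1 ± 9.34 TPM in DKO and 110 ± 21.5 TPM in WT. Zfp110 (Nrif), which binds the neurotrophin receptor p75, averaged 50.3 ± 7.57 TPM in DKO and 65.1 ± 10.5 TPM in WT, and Zfp24, needed for the maturation of oligodendrocytes, 43.9 ± 6.70 TPM and 54.2 ± 11.6 TPM. Of these 8, Zfp691 passed the test between genotypes and the other 7 had adjusted p-values of 0.138 to 0.490. In DKO, Zfp706 stood above the other 7 by more than the spread between libraries, while in WT its SD of 52.4 TPM was nearly as large as its distance to Zfp207, next in order. Zfp710 (96.7 ± 23.2 TPM in DKO and 88.3 ± 23.7 TPM in WT) and Zfp207 did not differ beyond their spread.

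Few Zfp genes changed between genotypes. With edgeR's quasi-likelihood test over all 13916 genes that passed the count filter, and a Benjamini-Hochberg adjusted p of 0.05 as the threshold, 6 of the 274 members (2.19%) were called, against 6.19% of all genes tested. Of these members 2 were higher in DKO, where 4.34% of all genes were called, and 4 were lower, where 1.85% of all genes were called. All 274 members passed the count filter. At an unadjusted p under 0.05 the test held 15 higher (5.47%) and 36 lower (13.1%) members, against 13.3% and 10% of all genes. The members just inside the minimum were Zfp827, Zfp979 and Zfp334, with mean counts of 50.8, 51.3 and 52.6, and those just outside were Zfp458, Zfp970 and Zfp395, with 47.3, 42.6 and 42.4.

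Zfp691 (ENSMUSG00000045268.13, chromosome 4 of GRCm38, 119169513 to 119174195, minus strand, 7 fingers and no KRAB box) had the smallest p of all members. Its CPM were 82.5, 75.3, 74.3, 63.9 and 75.3 in DKO 1 to 5, against 33.1, 31, 33.8, 22.6 and 43.8 in WT 1 to 5. The lowest DKO library lay above the highest WT library. The log2 fold change was 1.18 (SE 0.15, adjusted p = 0.00101 by edgeR). It was called in each of the 10 fits that left out 1 library, with log2 fold changes of 1.07 to 1.30.

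Zfp691 did not rise alone (its neighbours were looked at after its value was seen). Of the 26 other tested genes within 1 Mb of it, 9 were called higher in DKO and none lower, against 4.34% called higher among all genes. Before Zfp691 along the chromosome, 7 of them follow each other without another tested gene between them, from 118864649 to 118999458. They are the olfactory receptor genes Olfr1331, Olfr1330 and Olfr1328, the pseudogenes Gm12856 and Gm12864, and the noncoding genes Gm12861 and Gm12865. Olfr1330, whose receptor family serves smell in the nose, had 25.9 to 41.1 CPM in DKO and 1.37 to 2.73 CPM in WT libraries, with a log2 fold change of 3.98 (SE 0.21, adjusted p = 1.03e-06). The lincRNA Gm12865 had 6.07 to 10.4 CPM in DKO and 0.329 to 1.06 CPM in WT libraries. Olfr1331 had 1.45 to 2.93 CPM in DKO and at most 0.119 CPM in WT libraries. Gm12861 spans both Gm12864 and Gm12865, which lie within it, so the counts of these 3 genes are uncertain.

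The next gene, Slc2a1, which encodes the glucose transporter GLUT1, had 93.1 to 112 CPM in DKO and 97.8 to 139 CPM in WT libraries and was not called (adjusted p = 0.282). Ermap, an erythroid membrane protein gene that lies just upstream of Zfp691 on the same strand, had 29.8 to 36.5 CPM in DKO and 10.6 to 14.3 CPM in WT libraries, with a log2 fold change of 1.35 (SE 0.11, adjusted p = 4.84e-05). Foxj3, a forkhead factor gene at 119537004 to 119629119, was the ninth (20.8 to 44.3 CPM in DKO and 9.73 to 26 CPM in WT libraries, adjusted p = 0.0335, and 0.000775 without WT 3). The genotypes did not overlap in Zfp691, Ermap and the 7 genes before Slc2a1, and they overlapped in Foxj3. Ermap and Zfp691 lie on the same strand without overlap, and no tested gene overlaps Zfp691. The library kit does not mark strand, so reads of any unannotated transcript on the opposite strand could not be told from theirs. The cause of the shared rise was not tested.

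**Figure D1:**
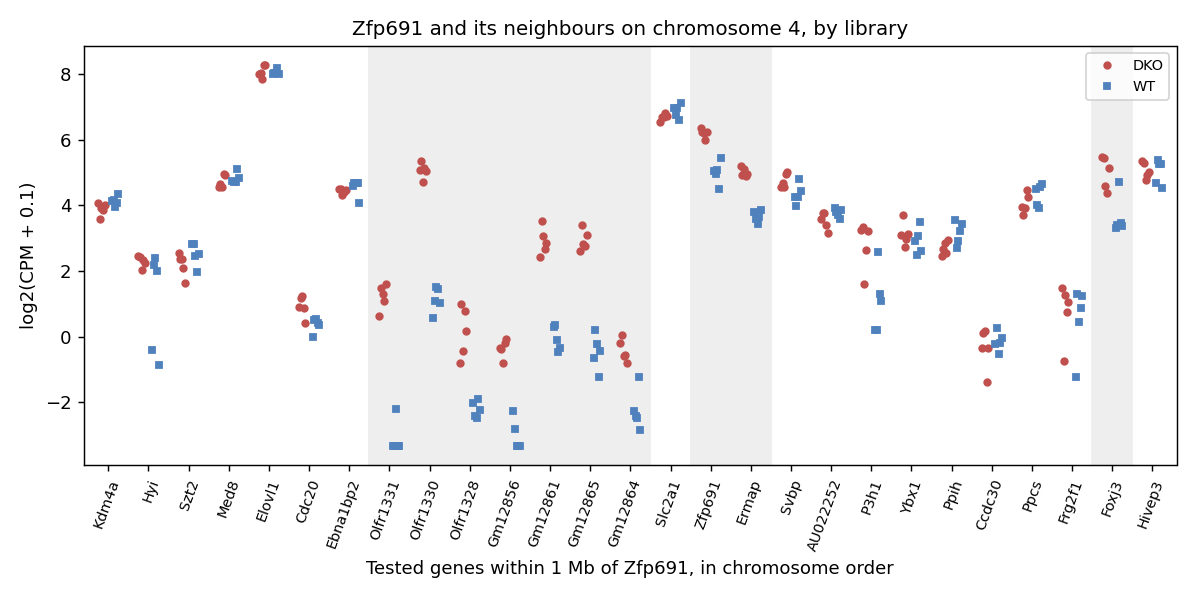
Expression of the 27 tested genes in the 1 Mb on either side of Zfp691, in chromosome order, as log2 of CPM plus 0.1, with 1 point per library (DKO circles left, WT squares right) and grey bands behind the genes called at an adjusted p under 0.05. A run of 7 genes from Olfr1331 to Gm12864, then Zfp691 and Ermap, were higher in every DKO library than in any WT library, while Slc2a1 between them was not called.

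The other called riser was Zfp771 (ENSMUSG00000054716.4, chromosome 7, 127244274 to 127254803, plus strand, 8 fingers, no KRAB box). Its CPM were 6.75, 11.8, 1.29, 1.39 and 5.57 in DKO 1 to 5, against 0.432, 0.467, 1.30, 0.329 and 0.715 in WT 1 to 5. DKO 1, DKO 2 and DKO 5 stood high, while DKO 3 and DKO 4 lay at the level of WT 3. The log2 fold change was 3.03 (SE 0.65, adjusted p = 0.0199 by edgeR), and the call was lost without DKO 1, WT 1, WT 2 or WT 4, with adjusted p-values of 0.0501 to 0.0558. With the effective length as an offset the log2 fold change was 1.28 and it was not called (adjusted p = 0.267). Next by p were Zfp703, a repressor in which no classical finger was found, with 6.84 to 11.3 CPM in DKO and 2.97 to 6.28 CPM in WT (adjusted p = 0.0562), and Zfp622, described below (adjusted p = 0.0626).

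The 4 called fallers all carry a KRAB box, and in none of the 4 did the genotypes overlap. They are 2.34% of the 171 KRAB members, where 1.85% of all genes were called lower. Zfp184 (ENSMUSG00000006720.16, chromosome 13, 21945094 to 21960779, plus strand, 18 fingers) had CPM of 2.61, 1.87, 2.27, 2.08 and 2.08 in DKO 1 to 5, against 5.08, 3.69, 4.39, 4.28 and 3.99 in WT 1 to 5. Every WT library was above every DKO library, and the log2 fold change was -0.97 (SE 0.16, adjusted p = 0.00531 by edgeR). The call held without any single library, at -1.04 to -0.90. With the effective length as an offset its log2 fold change was -0.62 and it was not called (adjusted p = 0.259).

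Zfp120 (chromosome 2, 150114406 to 150136708, minus strand, 9 fingers) had 43.4, 43.6, 42.4, 45.4 and 43.3 CPM in DKO 1 to 5, against 63.8, 51.8, 52.2, 62.6 and 57.6 CPM in WT 1 to 5. The DKO libraries were close together and all below WT, with a log2 fold change of -0.40 (SE 0.09, adjusted p = 0.0223). Zfp759 (chromosome 13, 67121660 to 67141787, plus strand, 19 fingers) had 5.17, 4.73, 5.75, 5.14 and 5.78 CPM in DKO 1 to 5, against 9.58, 8.02, 6.28, 7.61 and 9.14 CPM in WT 1 to 5. WT 3 was the WT library nearest to DKO, and the log2 fold change was -0.61 (SE 0.14, adjusted p = 0.0309). Zfp688 (chromosome 7, 127418967 to 127422068, minus strand, 2 fingers) had 11.9, 11.7, 10.3, 12.4 and 10 CPM in DKO 1 to 5, against 13.5, 14.5, 16.3, 19.0 and 15.2 CPM in WT 1 to 5, with a log2 fold change of -0.48 (SE 0.12, adjusted p = 0.0427). It lies in the same cluster of chromosome 7 as the riser Zfp771. Each of these 3 calls was lost in 5 to 9 of the 10 fits that left out 1 library, with adjusted p-values of 0.0501 to 0.103 where it was lost. The length offset also ended all 3 calls, with log2 fold changes of -0.43 for Zfp120, -0.38 for Zfp759 and -0.45 for Zfp688 and adjusted p-values of 0.0537, 0.418 and 0.0658.

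**Figure D2:**
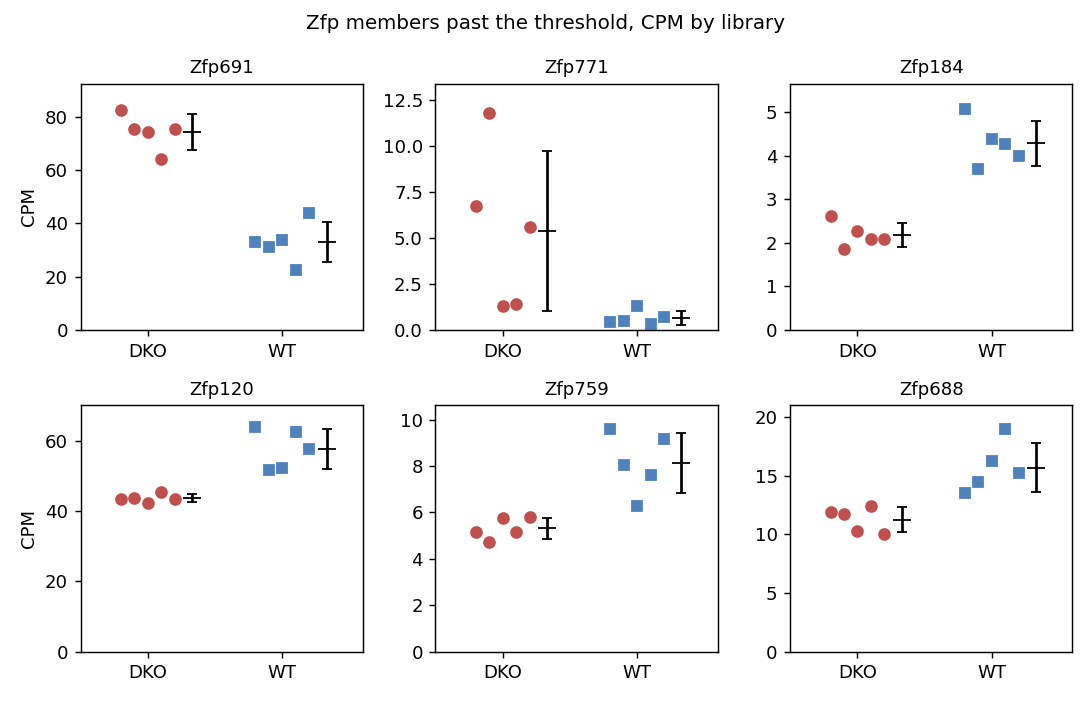
CPM of the 6 called Zfp members, with 1 point per library (DKO circles left, WT squares right) and a bar for each genotype's mean and SD. Zfp691 was higher in every DKO library, Zfp771 in DKO 1, DKO 2 and DKO 5 (5.57 to 11.8 CPM), and Zfp184, Zfp120, Zfp759 and Zfp688 were lower in every DKO library.

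Over all members, 2 were higher in every DKO library than in any WT library (4.33% of all genes were), Zfp691 and Zfp703. In the other direction 11 members were lower in every DKO library than in any WT library (3.29% of all genes were). Besides the 4 called fallers these were Zfp960, Zfp97, Zfp410, Zfp143, Zfp101, Zfp110 and Zfp286, with log2 fold changes of -0.68 to -0.23 and adjusted p-values of 0.0638 to 0.147. Zfp143 is a promoter-binding factor, and Zfp410 is known in human and mouse cells for activating Chd4, a remodeller of the NuRD complex. Zfp410 averaged 39.9 ± 3.00 CPM in DKO and 48.0 ± 2.80 CPM in WT, and Chd4 14.5 ± 4.07 CPM and 15.2 ± 4.07 CPM (adjusted p = 0.875). Zfp960 and Zfp97 are neighbours on chromosome 17, and 91.2% and 89.8% of the 31-base words of their longest transcripts also occur in other genes, so their counts are uncertain.

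The small number of calls stood beside a shift of many KRAB members by a small amount. Of the 171 KRAB members, 149 (87.1%) had a log2 fold change below 0, with a median of -0.20 and an interquartile range of -0.31 to -0.08. Of the 98 members without the box, 50 (51.0%) were below 0, with a median of -0.01 and an interquartile range of -0.21 to 0.35. Over all 13916 genes 51.3% were below 0, with a median of -0.01. The same sign was seen in 56 of 68 KRAB genes that are not named Zfp and a number (median -0.24), and in 14 of 16 Zscan and Zkscan genes (median -0.20). These sets are not separate, since any Zscan or Zkscan gene in which a KRAB box was found counts in both. The medians of 33 Zbtb genes (0.06), 7 Klf genes (-0.11) and 14 Zc3h genes (-0.06) lay nearer to 0 with all libraries. Without WT 1 and WT 5 the Zc3h median was -0.15 and that of the KRAB members -0.09, so this order turned round. All these families were taken at the same minimum mean count. Of them, 2 of the 68 KRAB genes were called lower (2.94%, against 1.85% of all genes). Called higher were 2 of the 33 Zbtb genes (6.06%) and 1 of the 7 Klf genes (14.3%), against 4.34% of all genes. No Zscan, Zkscan or Zc3h gene was called in either direction. In families this small 1 or 2 calls do not set one apart.

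**Figure D3:**
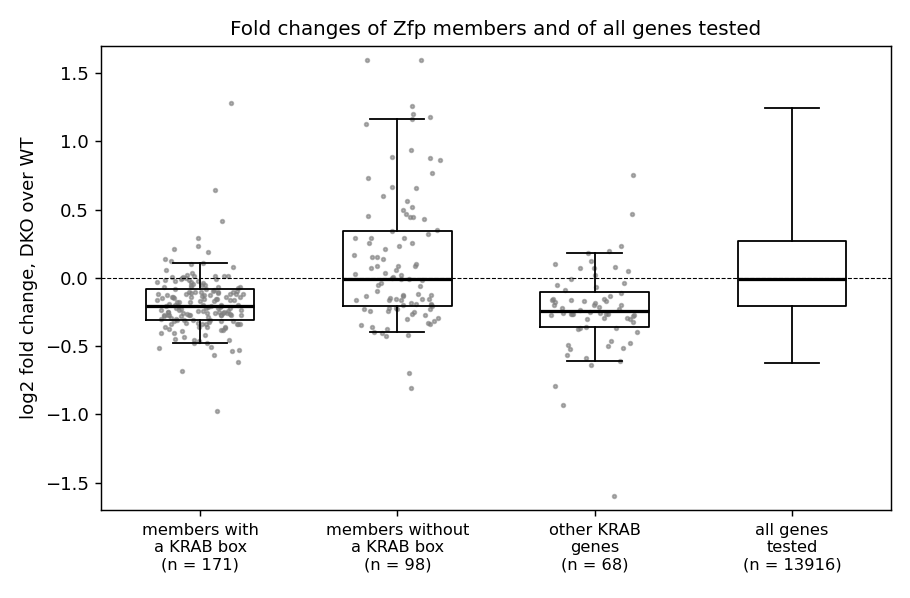
Log2 fold changes, DKO over WT, of KRAB members, members without a KRAB box, other KRAB genes and all genes tested, as boxes from the 25th to the 75th percentile with the median and whiskers at the 5th and 95th percentiles, and 1 grey point per gene for the first 3 groups (2 members and 1 other KRAB gene beyond 1.6 are drawn at that value). The box of the KRAB members lies below 0, at -0.31 to -0.08, and that of members without the KRAB box spans -0.21 to 0.35.

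The level of the KRAB members also differed between libraries of one genotype. As the median difference from each gene's mean over all libraries, on the log2 CPM scale, they stood at -0.11, -0.20, 0.10, -0.12 and -0.14 in DKO 1 to 5, against 0.28, -0.00, 0.01, 0.01 and 0.24 in WT 1 to 5. WT 1, WT 5 and DKO 3 were the highest, and DKO 3 lay above WT 2, WT 3 and WT 4. These 3 libraries also had the largest share of mitochondrial counts, 1.58% in DKO 3, 1.75% in WT 1 and 1.54% in WT 5, against 1.04% to 1.13% in the other DKO and 0.986% to 1.16% in the other WT libraries. Members without the box stood at -0.10 and -0.06 in WT 1 and WT 5 and at 0.02 in DKO 3. Those of them under 42% GC (21 genes) stood high in WT 1 and WT 5, at 0.20 and 0.15, as did 1276 other genes under 42% GC at 0.13 and 0.06. Members without the box at or above 42% GC (77 genes) stood at -0.26 and -0.08. The KRAB members stood high in WT 1 and WT 5 on both sides of this split. They were at 0.30 and 0.27 under 42% GC (90 genes) and at 0.25 and 0.20 at or above it (81 genes). Without WT 1 and WT 5 the median of the KRAB members was -0.09, with all genes at -0.00 and 2 of 274 members called (3.12% of all genes were). Without WT 1, WT 5 and DKO 3, a choice made after seeing the data, the KRAB median was -0.12 and again 2 members were called (2.73% of all genes were), Zfp691 and Zfp184.

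**Figure D4:**
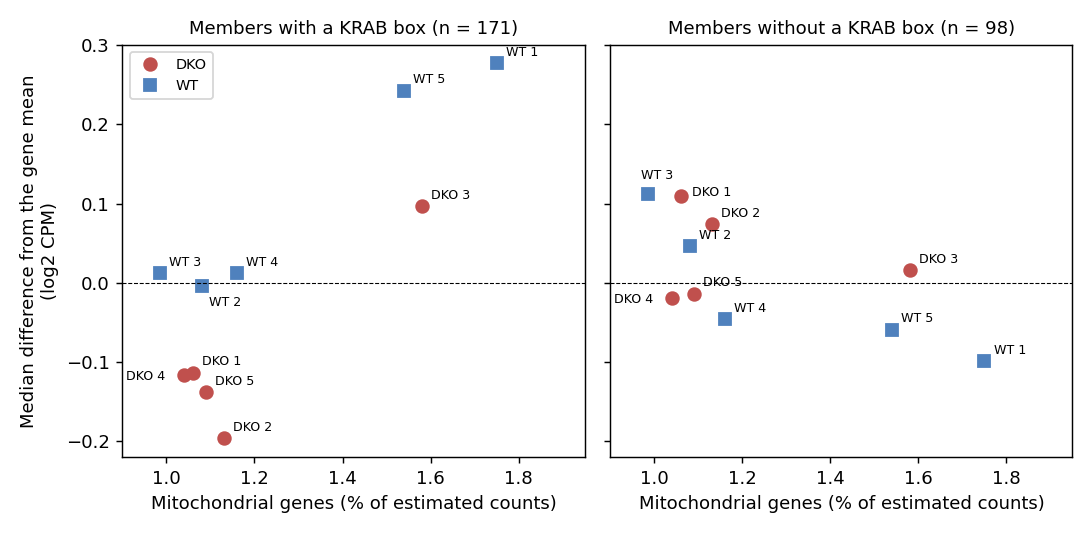
Median difference of KRAB members (left) and members without the KRAB box (right) from each gene's mean over all libraries, in log2 CPM, against the share of mitochondrial genes in the estimated counts, with DKO libraries as circles and WT libraries as squares. For KRAB members WT 1, WT 5 and DKO 3 lie at the right and high (0.28, 0.24 and 0.10), and among the libraries at the left the 4 DKO libraries lie below the 3 WT libraries.

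Among the libraries numbered 1 to 3 the KRAB median was -0.17, and among those numbered 4 and 5 it was -0.27. It was -0.23 to -0.16 when each library was left out in turn. The KRAB members are poor in G and C, with a median GC content of 41.5% against 48.5% for all genes and 48.8% for members without the box. The KRAB members under 42% GC (90 genes) and at or above it (81 genes) had the same median of -0.20. Members without the box had medians of -0.15 under 42% GC (21 genes) and 0.09 above it (77 genes), and 1276 other genes under 42% GC had a median of -0.07. With a loess correction for GC content the KRAB median was -0.25 and that of all genes -0.14. Across genes, which are not independent replicates, Spearman's rho between GC content and log2 fold change was 0.15 over KRAB members, 0.32 over members without the box and 0.14 over all genes. The number of fingers had a rho of -0.07 with the fold change over KRAB members and -0.10 over members without the box.

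Duplicated genes share sequence, and a read from a shared stretch cannot be placed by its letters alone. A median of 4.15% of the 31-base words of a KRAB member's longest transcript occurred in another gene, against 0.195% for members without the box. Of the KRAB members, 43 shared 20% or more, and their single values are uncertain. The 48 KRAB members that shared under 1% had a median log2 fold change of -0.15, with 36 of them (75%) below 0, and a median of -0.04 without WT 1 and WT 5. The part of shared sequence in the shift was not tested.

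Many members lie in clusters, which hold members with and without a KRAB box. With members at most 1500000 bases apart joined, 15 clusters held 5 or more members and 146 members in all, and 72 of the members with a position were on chromosome 7, 34 on chromosome 17 and 26 on chromosome 13. The median log2 fold change was below 0 in 13 of the 15 clusters. The lowest median, -0.27, was that of the cluster of chromosome 7 at 41633203 to 43593235, where all 7 members carry the box and all 7 were below 0. In the 16 KRAB members at 67038596 to 67827002 on chromosome 13, from which Zfp759 was called, the median was -0.23 and 14 were below 0. In the 19 members at 21008903 to 23564238 on chromosome 17 the median was -0.14 and 17 were below 0. The clusters at or above 0 were both on chromosome 7, one at 24081924 to 25083492 with 9 members and a median of 0.02, and one at 127233061 to 127885996 with 10 members and a median of 0.01, which holds both Zfp771 and Zfp688. Without WT 1 and WT 5 these medians were -0.01 and -0.02, those of 3 other clusters lay above 0 (0.02 to 0.06), and the lowest was -0.26 in the cluster of chromosome 4 at 146449023 to 147848366, where the chromosome 7 cluster at 41633203 had -0.14. The signs near 0 and the order of the clusters therefore changed with these 2 libraries.

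In some members 1 WT library, WT 3, stood at the level of DKO. Without WT 3, 14 members were called higher in DKO (8.25% of all genes were), which is 5.11% of the members, and 8 were called lower (3.12% of all genes were), which is 2.92%. Of the 14, 13 have no KRAB box. Leaving out WT 3 favours genes in which WT 3 is near DKO, so its place in them is a description: it was the highest WT library in 13 of the 14, against 45 of all 274 members. WT 3 also stood with the DKO libraries in the share of TPM taken by Gm23935, a very short noncoding gene annotated as a miRNA, at 20.3% against 23.2% to 26.6% in DKO and 2.85% to 6.60% in the other WT libraries. The part of this library difference in the members' values was not tested.

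Zfp622, which takes part in the maturation of the large ribosomal subunit, had 23.4, 24.1, 15.0, 12 and 23.1 CPM in DKO 1 to 5, against 1.98, 1.66, 14.8, 2.67 and 1.96 CPM in WT 1 to 5. WT 3 lay among the DKO libraries and the other WT libraries were far below. The log2 fold change was 2.08 (SE 0.59, adjusted p = 0.0626 by edgeR) with all libraries and 3.24 without WT 3 (adjusted p = 3.65e-05). Zfp12, the KRAB member of the group, had 42.8, 32.0, 36.9, 29.5 and 33.2 CPM in DKO 1 to 5, against 8.22, 12.2, 37.4, 6.29 and 7.75 CPM in WT 1 to 5. Zfp740 had 79.1, 82.2, 60.7, 51.9 and 62.1 CPM in DKO 1 to 5, against 14.3, 25.9, 67.1, 19.0 and 19.4 CPM in WT 1 to 5. In both genes WT 3 stood within the range of DKO and the other WT libraries below it. Zfp740 overlaps Csad on the opposite strand, and the counts of such pairs are uncertain.

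Zfp654 had 19.0 to 26.9 CPM in DKO, against 21.1 CPM in WT 3 and 5.08 to 8.53 CPM in the other WT libraries. Zfp292, a large protein first described as an activator of the growth hormone gene in the rat, had 18.2 to 41.8 CPM in DKO, against 33.5 CPM in WT 3 and 11.5 to 16.3 CPM in the other WT libraries. Zfp444, which in human cells binds the promoter of the scavenger receptor gene SCARF1, had 17.4 to 25.1 CPM in DKO, against 29.4 CPM in WT 3 and 2.20 to 10.3 CPM in the other WT libraries. None of these 3 was called with all libraries (adjusted p = 0.0737, 0.130 and 0.265 by edgeR), and all 3 were without WT 3. The other members called higher without WT 3 were Zfp639, Zfp580, Zfp653, Zfp787, Zfp553 and Zfp703, besides Zfp691 and Zfp771. Zfp653 overlaps Gm16845 on the other strand and Zfp580 overlaps Ccdc106 on its own strand, so their counts are uncertain too. In Zfp691, WT 3 (33.8 CPM) lay within the other WT libraries (22.6 to 43.8 CPM).

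**Figure D5:**
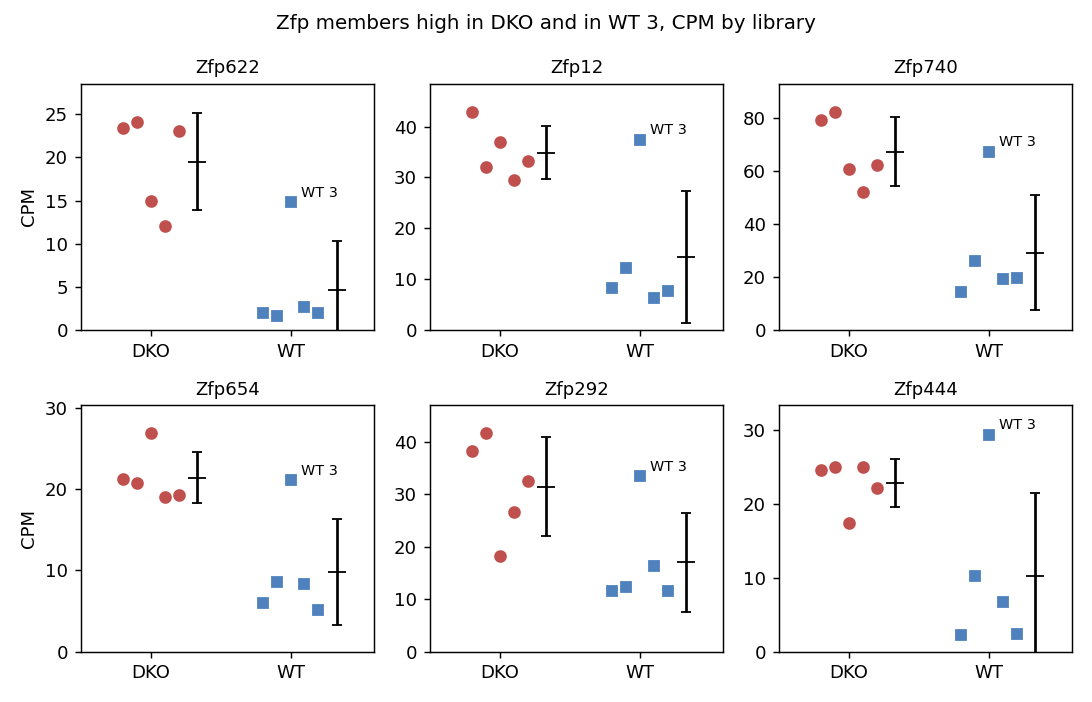
CPM of 6 Zfp members called higher in DKO without WT 3, with 1 point per library (DKO circles left, WT squares right, WT 3 labelled) and a bar for each genotype's mean and SD. In each panel WT 3 lies at or above the lowest DKO library, and the other 4 WT libraries lie below all DKO libraries.

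The members called lower without WT 3 were Zfp184, Zfp759, Zfp770, Zfp120, Zfp960, Zfp429, Zfp97 and Zfp455, of which all but Zfp770 have a KRAB box. Beside Zfp960 and Zfp97, Zfp429 and Zfp455 shared 40.7% and 22.1% of their 31-base words with other genes, and their counts are uncertain. Zfp770 had 6.41, 6.16, 6.52, 7.79 and 5.99 CPM in DKO 1 to 5, against 17.3, 9.51, 6.88, 9.58 and 14.2 CPM in WT 1 to 5. WT 3 was again at the level of DKO. Zfp467, a factor that favours fat over bone differentiation in mice, was split in another way, with 65.1, 80.5, 69.8, 69.4 and 64.9 CPM in DKO 1 to 5, against 7.17, 59.0, 68.7, 46.9 and 8.65 CPM in WT 1 to 5. WT 1 and WT 5 were low and the other WT libraries near DKO (adjusted p = 0.347).

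BHLHE40 and BHLHE41 bind the palindromic E-box CACGTG. It was searched in RefSeq promoter windows of GRCm38.p6, from 250 bases before to 50 bases after the start of the gene, where 1 strand suffices because the motif reads alike on both. Of the 274 members, 231 had a window, and 17 of these (7.36%) held the motif, against 7.15% of all 32851 windows and 11.7% of 9746 tested genes. The 17 members with the motif had a median log2 fold change of -0.21 and the 214 without it -0.15. Of the 17, 14 carry a KRAB box, as do 151 of the 231 members with a window, so the share of KRAB members differs between these sets. None of the 6 called members had the motif. The upstream 250 bases are shown for the strongest call in each direction, Zfp691 and Zfp184, and for 2 members with the motif, Zfp292, where it occurs at 2 places, and Zfp994, the KRAB member with the lowest fold change among those that hold it. Each reads 5′ to 3′ on the strand of the gene and ends at the base before its RefSeq start, and capitals mark the E-box.
Zfp691 promoter (chr4:119174196-119174445, minus strand): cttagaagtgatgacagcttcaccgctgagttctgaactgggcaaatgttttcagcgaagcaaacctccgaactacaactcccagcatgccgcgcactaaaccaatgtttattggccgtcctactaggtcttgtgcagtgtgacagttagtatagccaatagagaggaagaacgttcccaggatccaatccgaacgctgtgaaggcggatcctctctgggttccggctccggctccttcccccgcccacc
Zfp184 promoter (chr13:21944844-21945093, plus strand): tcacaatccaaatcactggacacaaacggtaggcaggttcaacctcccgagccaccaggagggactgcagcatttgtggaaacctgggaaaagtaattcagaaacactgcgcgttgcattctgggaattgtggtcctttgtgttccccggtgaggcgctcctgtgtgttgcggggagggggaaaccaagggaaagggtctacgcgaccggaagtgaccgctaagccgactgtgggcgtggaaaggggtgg
Zfp292 promoter (chr4:34882949-34883198, minus strand): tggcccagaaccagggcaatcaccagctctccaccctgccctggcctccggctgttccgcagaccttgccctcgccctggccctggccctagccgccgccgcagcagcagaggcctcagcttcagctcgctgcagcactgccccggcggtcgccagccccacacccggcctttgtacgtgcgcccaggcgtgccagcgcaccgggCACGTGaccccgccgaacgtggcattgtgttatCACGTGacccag
Zfp994 promoter (chr17:22225615-22225864, minus strand): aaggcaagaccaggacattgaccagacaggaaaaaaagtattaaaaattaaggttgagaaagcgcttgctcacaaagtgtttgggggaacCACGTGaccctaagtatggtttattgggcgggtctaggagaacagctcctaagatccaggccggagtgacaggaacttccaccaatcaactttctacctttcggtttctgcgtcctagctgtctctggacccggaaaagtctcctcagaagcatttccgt

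In Zfp292 the E-box nearer to the middle begins 45 bases before the start, and in Zfp994 the single E-box begins 160 bases before it. Zfp994 (chromosome 17, 17 fingers) had 13.8, 13.7, 17.5, 11.3 and 11.1 CPM in DKO 1 to 5, against 21.8, 16.3, 17.8, 17.2 and 17.8 CPM in WT 1 to 5. DKO 3 overlapped the WT libraries, and the log2 fold change was -0.43 (SE 0.15, adjusted p = 0.102 by edgeR). A match shows only that these letters are in the window.

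Of 26 tested genes of partners through which KRAB proteins repress, 0 were called by edgeR, against 6.19% of all genes. At an unadjusted p under 0.05 there were 8 (30.8%), against 23.3% of all genes. DESeq2 called 2 of the 26 partners, and 1629 genes in all. Without WT 3 edgeR called 3 of the 26, Hdac2, Mbd3 and Gatad2a, where 8.25% of all genes were called higher and 3.12% lower. The median log2 fold change of the list was 0.13, beside -0.20 for the KRAB members. Trim28, the corepressor that binds the KRAB box, averaged 20.9 ± 6.61 CPM in DKO and 15.9 ± 1.62 CPM in WT (adjusted p = 0.267). Setdb1 averaged 46.4 ± 3.11 CPM in DKO and 60.3 ± 11.2 CPM in WT (adjusted p = 0.106), and the histone deacetylase gene Hdac2 31.5 ± 18.3 CPM and 5.86 ± 7.23 CPM (adjusted p = 0.0620 with all libraries and 0.000769 without WT 3). The 2 most abundant partners, Rbbp4 and Mta2, had adjusted p-values of 0.512 and 0.324. None of the 4 tested genes of the HUSH complex, which silences transposons together with Setdb1, was called. Its member Fam208a averaged 30.3 ± 3.72 CPM in DKO and 16.7 ± 8.35 CPM in WT (adjusted p = 0.0792, and 0.000435 without WT 3), and its most abundant member Pphln1 had an adjusted p of 0.492. Of 11 tested methyltransferases and demethylases of histone H3 lysine 9, the demethylase gene Kdm4b was called higher, at 29.3 ± 14.1 CPM in DKO and 7.62 ± 6.29 CPM in WT (log2 fold change 1.94, SE 0.50, adjusted p = 0.0417).

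Members with known roles outside KRAB repression were grouped from background knowledge and named for their role. None of them was called, against 6.19% of all genes, and the groups are too small to read this as a result. In translation, Zfp622, described above, averaged 19.5 ± 5.60 CPM in DKO and 4.62 ± 5.72 CPM in WT (adjusted p = 0.0626 by edgeR, and 3.65e-05 without WT 3). Zfp593, a ribosome biogenesis factor, averaged 14.7 ± 2.41 CPM in DKO and 10.6 ± 3.19 CPM in WT (adjusted p = 0.208). In RNA binding, Zfp638, a splicing regulator in fat cells, averaged 31.7 ± 3.80 CPM in DKO and 32.9 ± 7.54 CPM in WT, and Zfp830, which interacts with the spliceosome, 19.3 ± 0.924 CPM and 23.7 ± 2.96 CPM (adjusted p = 0.870 and 0.126). Among members of chromatin complexes, Zfp644, a partner of the methyltransferases G9a and GLP, averaged 44.3 ± 1.29 CPM in DKO and 43.7 ± 2.75 CPM in WT. Among promoter-binding factors, Zfp148 averaged 74.4 ± 4.47 CPM in DKO and 76.5 ± 4.05 CPM in WT, and Zfp281 38.3 ± 3.73 CPM and 23.1 ± 12.4 CPM (adjusted p = 0.793 and 0.222). Zfp451, a SUMO ligase, averaged 48.2 ± 5.4 CPM in DKO and 43.4 ± 6.27 CPM in WT (adjusted p = 0.482).

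In transcript length, 1 member of 242 with more than 1 annotated transcript separated the genotypes. Such a separation was seen in 1.31% of 10780 tested genes with more than 1 transcript. Zfp592, which joins Zfp687 and Zmynd8 in a transcriptional complex, had an abundance-weighted length of 3804, 4571, 4339, 4188 and 4340 bases in DKO 1 to 5, against 7297, 5971, 7297, 7297 and 5160 bases in WT 1 to 5. The means were 4248 ± 284 bases in DKO and 6605 ± 991 bases in WT (SD, n = 5 each). Any gene whose lengths separate the genotypes has the same 2-sided exact permutation p, 0.00794, unadjusted over 242 genes. That p is the smallest that 5 against 5 libraries can give, and it adds nothing to the separation by which Zfp592 was picked. Its CPM overlapped between the genotypes, at 5.57 to 15.5 in DKO and 2.63 to 8.77 in WT (adjusted p = 0.339). Zfp592 was named after this value was seen.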

How the data were processed

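Libraries of 5 DKO and 5 WT samples were made with an unstranded kit (TruSeq v2). The submitters' processing notes name FastQC 0.11.8, cutadapt 2.6, STAR 2.5.3a and the mm10 build. The sources used here do not name the tool that estimated gene values. Each deposited file holds, per gene, an estimated count without normalization, a TPM that the authors' tool scaled to a common total, and an abundance-weighted and an effective length. Depth was 22483044 to 26109107 counts per sample, and the biological coefficient of variation was 28.0%. The linear mixed model of the authors was not used here.

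Estimated counts were rounded, filtered by filterByExpr (minimum count 10), normalized with TMM factors and compared in edgeR 4.0.16 in R 4.3.3 (glmQLFit and glmQLFTest, DKO over WT, no other term), with Benjamini-Hochberg adjustment over all 13916 genes at 0.05. Member rows were taken from this fit. The SE was derived from the fold change and the root of its F statistic. KRAB and SCAN boxes were found with HMMER 3.4 (E-value up to 1e-05) in translations of GENCODE M21 coding sequences (GRCm38), which also give positions. Fingers were counted by pattern. Promoter sequences are those of RefSeq.

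Members and gene lists were chosen with earlier results of these data known. Named members are up to 14 called in each direction, the 4 of smallest p where fewer than 4 were called, the 8 highest in TPM, those at the minimum, the called or, with none called, the 2 most abundant genes of each partner list, and others named after their values were seen. These are the members called without WT 3, those that did not overlap, and those named for a role, a promoter, a cluster or a transcript length.

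Alternatives were RLE, upper-quartile and no factors, robust edgeR, DESeq2 1.42.0, limma 3.58.1 (voom, and log2 TPM with 1 or 0.1 added, also without Gm23935), 2 other count filters, effective length as an offset, a GC loess correction (span 0.4), the replicate number as a block, a set term (libraries 1 to 3 against 4 and 5), each set alone, leaving out libraries, and a mean count of at least 20 or 100 for the members. Leaving out WT 1, WT 5 and DKO 3, and the KRAB median under each alternative, were added after seeing the data.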

Additional observations from a re-analysis of the deposited data

Results flagged for a closer look

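A library stood far from the others of its genotype in 9 of the 64 groups of 5 searched, in the sense that its gap to the nearest library was over 0.71 of the group's range. Chance gives such a gap in about 5% of groups not chosen for it, a rate that does not apply to the members named because they were called without WT 3, which hold all 5 gaps of WT 3. WT 3 was the highest WT library in 5 members, at 14.8 CPM in Zfp622 (next 2.67), 37.4 CPM in Zfp12 (next 12.2), 67.1 CPM in Zfp740 (next 25.9), 21.1 CPM in Zfp654 (next 8.53) and 33.5 CPM in Zfp292 (next 16.3). DKO 2 was the highest DKO library in Zfp703 at 11.3 CPM (next 8.03) and the lowest in Zfp97 at 6.20 CPM (next 8.97). DKO 3 was the highest DKO library in Zfp654 at 26.9 CPM (next 21.2) and in the median of the KRAB members at 0.0971 on the log2 scale (next -0.114). The causes were not tested.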

How the results depend on the processing

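The count of all changed genes, 862, was 1629 with DESeq2, 4815 and 4820 on log2 TPM with 1 or 0.1 added, 1431 with the set term, 298 and 57 in the sets numbered 1 to 3 and 4 and 5 alone, 449 without WT 1 and WT 5 and 388 without DKO 3 as well. Members called higher, 2, were 8 with DESeq2, 7 with voom, 6 and 6 on log2 TPM plus 1 or 0.1, 5 on log2 TPM without Gm23935, 5 with the set term, 1 in each set alone, 1 without WT 1 and WT 5 with or without DKO 3, and 1 at a mean count of at least 100. Members called lower, 4, were 10 with DESeq2, 8 with the GC correction, 0 with the length offset, 8 with library size only, 9 with upper-quartile factors, 110 and 112 on log2 TPM plus 1 or 0.1, 1 on log2 TPM without Gm23935, 1 without a count filter, 9 with the set term, 0 in each set alone, and 1 without WT 1 and WT 5 with or without DKO 3. The KRAB partners changed, 0, were 2 with DESeq2, 1 with the GC correction, 1 with voom, 9 and 9 on log2 TPM plus 1 or 0.1, 2 on log2 TPM without Gm23935, 1 without a count filter and 1 with the set term. The median of all members, -0.15, was -0.41 and -0.52 on log2 TPM plus 1 or 0.1 (with 1 added all genes had -0.26), -0.26 with upper-quartile factors, where all genes had -0.11, and -0.0655 without WT 1 and WT 5, and that of KRAB members, -0.20, was -0.44 and -0.56 on log2 TPM plus 1 or 0.1. The causes were not tested. Both medians stayed below 0 under every alternative run.

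Leaving out 1 library at a time gave 402 to 1618 changed genes, 1 to 14 members higher, 1 to 8 lower, 0 to 3 partners changed, and medians of -0.19 to -0.12 for all members and -0.23 to -0.16 for KRAB members. Leaving out WT 3 gave the most calls of each of these counts. Zfp691 was called in 28 of 29 alternatives, Zfp184 in 25, Zfp120 in 16, Zfp771 in 15, Zfp688 in 13 and Zfp759 in 11, with an unchanged sign in each. Libraries of equal number did not deviate together (correlations of -0.235 to 0.20), so the numbers were not taken as pairs. With the replicate number as a block 547 genes, 2 higher and 1 lower members and 0 partners were called, and the medians were -0.15 and -0.20.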
